A study of Mus musculus with 3 samples.

Results

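The genes of IgA plasma cells and of IgA export were read on 3 Affymetrix arrays of follicle-associated epithelium, the cell layer that covers the lymphoid follicles of Peyer's patches in the small intestine. The 9 genes are Igha, Jchain, Prdm1, Irf4, Mzb1, Derl3, Fkbp11, Sdc1 and Pigr, out of 18193 genes on the arrays. They were followed through all 18 probe sets whose only gene symbol is one of these names. The tissue came from untreated C57BL/6 mice: 1 array from mice with wild type RBP-J, and 2 arrays from mice depleted of RBP-J by VillinCre on Rbpjflox/flox alleles. The arrays are called WT, KO1 and KO2, after their titles. RBP-J binds DNA and mediates the transcriptional output of Notch signalling. The Villin promoter drives Cre in intestinal epithelial cells, and B-lineage cells do not use it. The sources used here do not give age or the number of animals behind each array, so the spread between KO1 and KO2 may be technical.

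IgA is the main antibody of the gut. Plasma cells under the epithelium join IgA heavy and light chains into dimers with the J chain. The polymeric immunoglobulin receptor, made by epithelial cells from Pigr, binds J-chain-containing antibody on the basal side, carries it through the cell and releases it into the lumen with a part of the receptor. Peyer's patches are a main site where B cells switch to IgA, and a B cell becomes a plasma cell when the transcription factors Irf4, Prdm1 and Xbp1 shut off B cell genes and enlarge the endoplasmic reticulum.

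At their brightest probe sets 4 of the 9 genes were lowest in KO1 and highest in KO2, with WT between them. This was the order of 30.7% of all tested genes. The 4 were Igha, the heavy chain of IgA, Jchain, which links antibody units, Mzb1, a chaperone of B-lineage cells that helps antibody assembly, and Irf4. Their ratios of KO2 to KO1 were 2.06, 2.69, 5.18 and 1.83. Derl3, Fkbp11, Pigr and Sdc1 were above WT in both KO1 and KO2, as were 39.0% of all tested genes. The brighter probe set of Pigr lay within a narrow range, from 79.2 to 87.3. The other, almost as bright, read 80.9 in WT, 65.5 in KO1 and 93.0 in KO2, the order of Igha and Jchain. No gene of the 9 was called different between depleted and wild type epithelium, by a limma fit over 11885 genes. That fit called 0.0841% of all genes, so 0 of 9 is no trait of these genes. In bulk RNA, fewer cells of a type and less RNA per cell cannot be told apart.

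Each value is an intensity expressed as a multiple of its own array's median. Log2 differences are of log2(value + 0.248), which understates changes of dim genes. Over all tested genes the median log2 difference from WT was -0.0026 for KO1 and 0.22 for KO2, and 0.22 is the level to compare KO2 with. The epithelial genes Epcam, Vil1, Cdh1, Krt8, Krt20 and Cdx2 read from 41.4 to 153 over the arrays. Rbpj read 7.15 in WT, 2.72 in KO1 and 5.74 in KO2 at its brightest probe set. Its other tested probe sets read 5.37, 4.14 and 4.92, and 3.79, 2.30 and 4.21, the last of these above WT in KO2. Their positions relative to the deleted exons are unknown here, so the values do not check the deletion. Xist read 0.297 in WT, 42.8 in KO1 and 43.4 in KO2, and the Y-linked Eif2s3y 20.6, 0.122 and 0.056, so genotype and sex cannot be told apart. Xist and Eif2s3y were among the genes that the fit called different.

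The upstream sequences of 3 of the genes are shown because they stand for the epithelial receptor, the antibody chain and the secretory machinery. They are the 250 bases before the RefSeq start site in GRCm38.p6, written along the gene's strand. Capitals mark matches to 3 motifs: TGGGAA, the core of RBP-J sites, CACGTG, the E-box bound by USF factors, and the endoplasmic reticulum stress response element, CCAAT and CCACG with 9 bases between them. Both strands were searched, and no match overlapped another.
Pigr, chr1:130826434-130826683, plus strand: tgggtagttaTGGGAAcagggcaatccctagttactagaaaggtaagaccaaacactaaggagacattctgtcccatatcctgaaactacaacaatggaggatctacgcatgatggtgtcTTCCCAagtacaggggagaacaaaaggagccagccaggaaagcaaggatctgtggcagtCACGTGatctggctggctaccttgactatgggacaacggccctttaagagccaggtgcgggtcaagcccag
Jchain, chr5:88527898-88528147, minus strand: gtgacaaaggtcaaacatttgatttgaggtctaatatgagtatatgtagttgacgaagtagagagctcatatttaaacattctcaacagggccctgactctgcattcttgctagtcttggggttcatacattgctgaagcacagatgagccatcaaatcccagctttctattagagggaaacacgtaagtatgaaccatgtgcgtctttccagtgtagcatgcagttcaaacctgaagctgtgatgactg
Derl3, chr10:75893148-75893397, plus strand: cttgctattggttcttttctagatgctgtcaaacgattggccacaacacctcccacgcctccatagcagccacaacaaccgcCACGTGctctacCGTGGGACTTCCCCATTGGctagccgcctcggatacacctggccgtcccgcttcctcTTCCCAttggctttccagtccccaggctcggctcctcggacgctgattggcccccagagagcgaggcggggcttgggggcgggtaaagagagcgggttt
The Pigr window held TGGGAA on the gene's strand and on the opposite strand, and 1 E-box at 71 to 66 bases before the start. The Derl3 window held 1 E-box, 1 stress response element on the opposite strand at 156 to 138 bases before the start, and 1 TGGGAA core on the opposite strand. The Jchain window held none of the 3. Among 32851 promoter windows of this length, 21.6% held TGGGAA, 6.02% the E-box and 0.113% the stress response element. Windows of 7 of the 9 genes were searched, 8 in all, and 3 of them held TGGGAA: those of Pigr, Derl3 and Prdm1. Mzb1 and Igha were left out of this search, so the counts do not speak for them. The interferon-stimulated response element, GAAA and GAAA with 2 bases between them, present in 2.98% of all windows, and the XBP1 core GACGTGG, in 1.97%, were in none of the 8. A match is a description of the letters only.

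**Figure D1:**
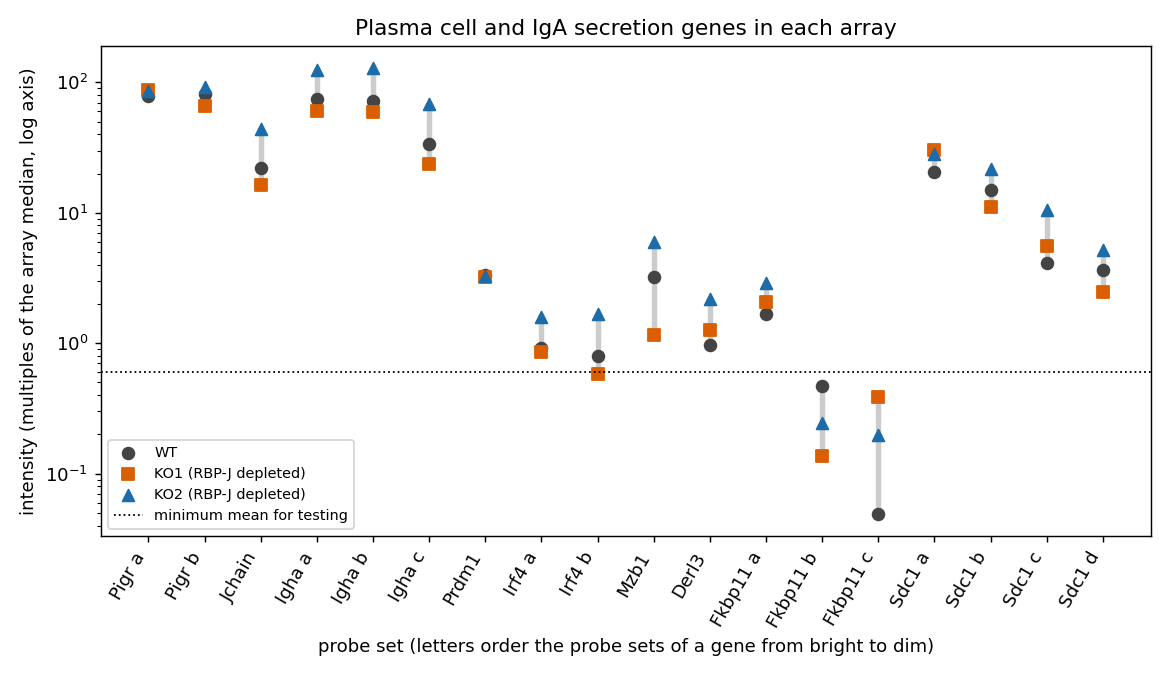
Intensity, in multiples of the array median on a log axis, of the 18 probe sets in WT, KO1 and KO2, with a grey bar from the lowest to the highest value and a dotted line at the minimum mean for testing, 0.598. All 3 Igha probe sets, Jchain, both Irf4 probe sets and Mzb1 lie highest in KO2 and lowest in KO1, while Prdm1 lies between 3.20 and 3.36.

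Igha had 3 probe sets, and they gave the same order. The brightest, 1425763_x_at, read 74.5 in WT, 60.9 in KO1 and 125 in KO2. Probe set 1421653_a_at read 71.6, 59.6 and 128, and 1429381_x_at read 33.8, 23.5 and 68.2. KO1 was thus at 0.817, 0.832 and 0.697 of WT, and KO2 at 1.68, 1.79 and 2.02 times WT. The mean of KO1 and KO2 for the brightest was 93.2 ± 45.6 (SD, n = 2), a log2 difference from WT of 0.23 (SE 0.38, limma adjusted p = 0.9997), which turned to -0.014 with quantile normalization. Probe sets ending in x_at hold probes that can also bind other transcripts, and heavy chain genes share sequence, so some of this signal can come from other immunoglobulins.

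Jchain, with the single probe set 1424305_at, read 22.0 in WT, 16.4 in KO1 and 44.2 in KO2. KO1 and KO2 lie on opposite sides of WT, and their mean of 30.3 ± 19.7 (SD, n = 2) gave a log2 difference of 0.29 (95% interval -0.57 to 1.15, limma adjusted p = 0.9997). The separate log2 differences from WT were -0.42 and 0.998.

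The transcription factors of plasma cell differentiation did not share one pattern. Prdm1, the gene of Blimp-1, which represses B cell genes and is also expressed in the epithelium of the suckling intestine, read 3.36 in WT, 3.20 in KO1 and 3.27 in KO2. Its depleted mean was 3.23 ± 0.0509 (SD, n = 2), and both lay under WT by log2 differences of -0.07 and -0.04. The interval of the difference, from -1.05 to 0.94, is that of the fit's pooled spread. Irf4, needed both for class switching and for plasma cells, was dim, with its brighter probe set 1421174_at at 0.916 in WT, 0.862 in KO1 and 1.58 in KO2. Its other probe set, 1421173_at, read 0.805, 0.579 and 1.66. Both Irf4 probe sets kept the order of Igha and Jchain, at ratios of KO2 to KO1 of 1.83 and 2.87.

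The 3 genes of the secretory machinery did not go the same way in KO1, where Mzb1 was under WT and the others above it. Mzb1 read 3.24 in WT, 1.15 in KO1 and 5.97 in KO2, with log2 differences of -1.32 and 0.83. Derl3, which helps move misfolded proteins out of the endoplasmic reticulum, read 0.963 in WT, 1.27 in KO1 and 2.19 in KO2. KO1 and KO2 were both above WT, and their fitted log2 difference was 0.67 with an SE of 0.56 (limma adjusted p = 0.9997). Fkbp11, a prolyl isomerase of the secretory route, read 1.67 in WT, 2.09 in KO1 and 2.88 in KO2 at its brightest probe set, 1417267_s_at. Its other probe sets were too dim to be tested: 1425839_at read 0.467, 0.137 and 0.246, and 1425938_a_at 0.049, 0.389 and 0.197. These dim probe sets went in opposite directions, and the values lie near or under the pseudocount.

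Sdc1, the gene of syndecan-1 or CD138, is used as a plasma cell marker and is also a proteoglycan of epithelial cells. Its brightest probe set, 1437279_x_at, read 20.7 in WT, 30.5 in KO1 and 28.2 in KO2, both above WT (log2 difference 0.50, SE 0.43, limma adjusted p = 0.9997). The other probe sets did not give that order. Probe set 1415943_at read 14.9, 11.03 and 21.9, and 1448158_at read 3.66, 2.49 and 5.15, the order of Igha and Jchain. Probe set 1415944_at read 4.13, 5.54 and 10.6, with KO1 and KO2 above WT. The direction of Sdc1 in KO1 therefore depends on the probe set.

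Pigr, the epithelial part of IgA transport, had a narrow range over the arrays at its brighter probe set and a wider one at the other. Probe set 1455490_at read 79.2 in WT, 87.3 in KO1 and 85.3 in KO2. The depleted mean was 86.3 ± 1.40 (SD, n = 2), with a log2 difference of 0.12 (95% interval -0.61 to 0.86, limma adjusted p = 0.9997). Probe set 1450060_at read 80.9, 65.5 and 93.0, the order of Igha and Jchain, at a ratio of KO2 to KO1 of 1.42. In KO2 the log2 differences of both Pigr probe sets, 0.11 and 0.20, were under the median of 0.22 over all genes. With quantile normalization the difference of 1455490_at over KO1 and KO2 turned to -0.12.

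**Figure D2:**
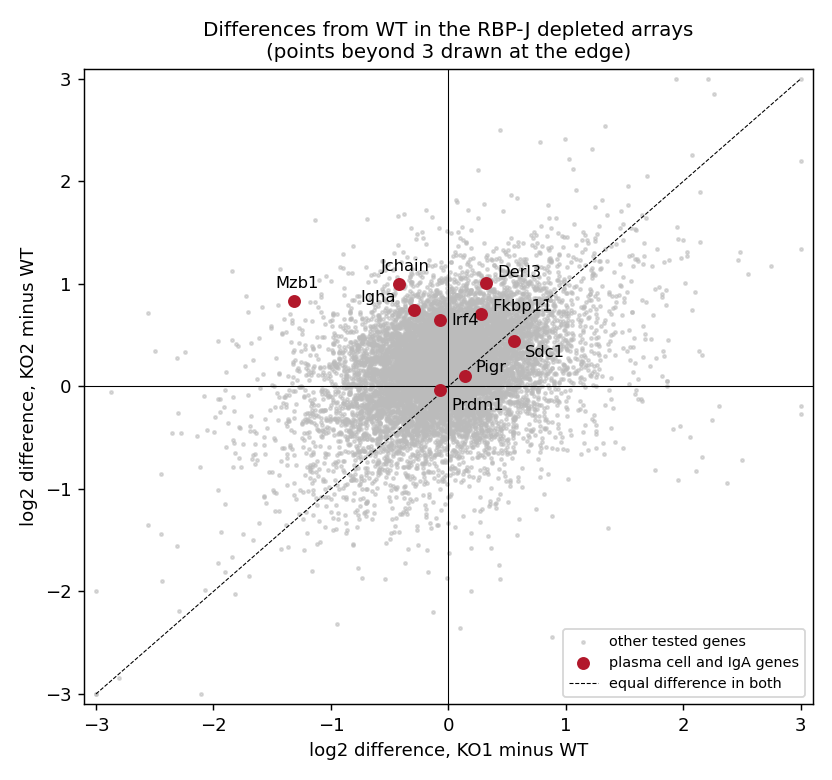
Log2 difference from WT in KO1 (x axis) and KO2 (y axis) for the 11885 tested genes in grey and the 9 genes in red, each at its brightest probe set, with a dashed line of equal differences. Mzb1, Jchain, Igha and Irf4 lie in the upper left part, lower than WT in KO1 and higher in KO2, while Pigr and Prdm1 lie close to the origin.

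At their brightest probe sets 0 of the 9 genes were called at a limma adjusted p under 0.05, against 0.0841% of all tested genes, and 0 of the 9 had an unadjusted p under 0.05, against 2.27%. With each probe set tested by itself 0 of 16 were called, against 0.0929% of all probe sets tested. None was called in any of the other settings with a test. The fit pools its spread from the distances between KO1 and KO2 over tested genes of like intensity, and assumes the same spread for WT. The SE and interval of a gene therefore hardly reflect its own distance. Mzb1 and Prdm1 had SEs of 0.52 and 0.51, with KO2 minus KO1 at 2.15 and 0.03 on the log2 scale. KO1 and KO2 were both above WT for 4 genes, Derl3, Fkbp11, Pigr and Sdc1, where 39.0% of all tested genes were. Both were below for 1, Prdm1, against 19.5%. KO1 was below and KO2 above for 4, Igha, Irf4, Jchain and Mzb1, against 30.7%. Of the 16 probe sets tested 10 had this order, against 30.5% of all probe sets tested, but probe sets of a gene share their target and are not separate evidence. The share of all genes with this order depended on the scaling: it was 20.5% with quantile normalization, 19.6% with one 75th percentile for the arrays and 17.1% when scaled to genes averaging 5 or more, with the same 4 of the 9 genes each time. With the probe sets of a gene averaged, Pigr joined them, giving 5 of the 9 against 31.6%. The KO1 and KO2 differences share the same WT array. None of the 9 differed by 2-fold or more from WT in KO1 and KO2 alike, which 0.841% of all tested genes did in the higher and 0.488% in the lower direction.

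KO2 was above KO1 for 7 of the 9 genes, against 66.9% of all tested genes, and above it by 1 or more on the log2 scale, 2-fold, for 3, Igha, Jchain and Mzb1, against 6.55%. KO1 was 2-fold above KO2 for 0 of the 9, against 2.50%. The median log2 difference of KO2 minus KO1 was 0.69 over the 9 genes, 0.22 over all tested genes and 0.27 over the 5871 tested genes whose mean intensity was 5 or more. Under those 3 scalings, in the order above, the median of the 9 genes was 0.62, 0.48 and 0.43, against 0.0056, -0.0085 and -0.06 over all genes. With a pseudocount of 1 it was 0.47 against 0.19, and with one of 5 it was 0.17 against 0.10. With quantile normalization, one 75th percentile for the arrays, or scaling to genes averaging 5 or more, Jchain and Mzb1 remained at least 2-fold apart and Igha, at 0.74, 0.80 and 0.74, did not. The shares of all genes were then 4.01%, 3.18% and 2.65%. With a pseudocount of 5 only Jchain remained, against 0.32%. This is a difference between 2 arrays of the same genotype, with no replicate and no test.

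**Figure D3:**
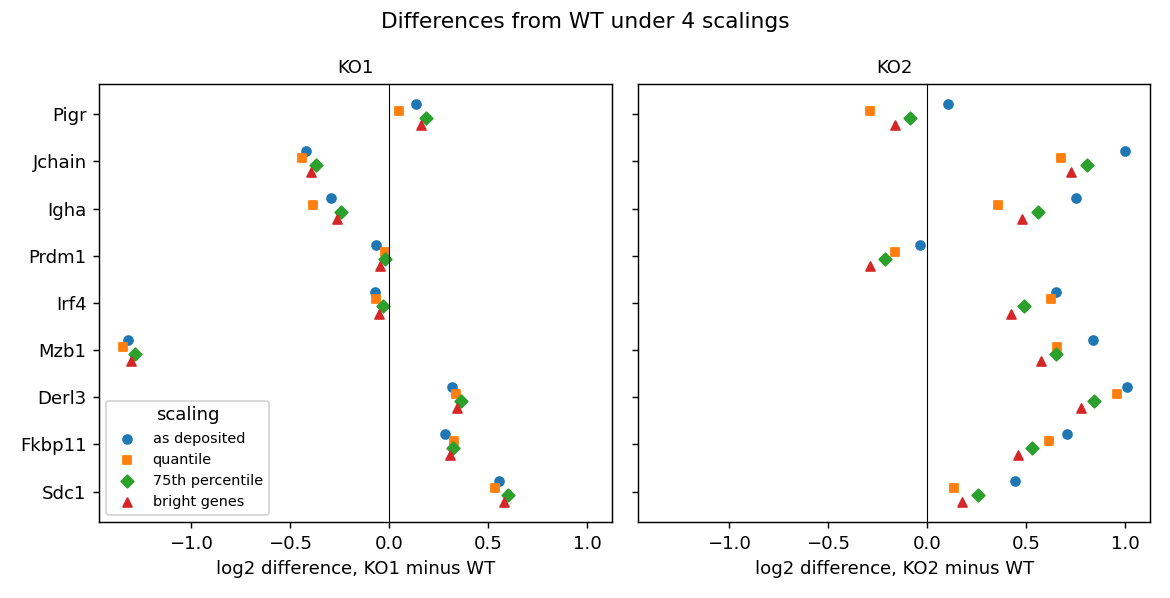
Log2 difference from WT of the 9 genes in KO1 (left) and KO2 (right), with the values as deposited and under 3 other scalings shown by marker. Igha, Irf4, Jchain and Mzb1 keep their sides of 0 in KO1 and in KO2 under all 4 scalings, while Pigr in KO2 moves from 0.11 to between -0.29 and -0.09.

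Ighm and Igk, among the other immunoglobulin chains, had the order of Igha and Jchain at their brightest probe sets, and Ighg3 and Igll1 did not. Of 17 chain names listed, 5 had a probe set of their own and 4 were tested. Of these 4, 0 were called in either direction, against 0.0841% of all tested genes, the share to set beside each list below. Ighm, the heavy chain of IgM, read 13.1 in WT, 9.72 in KO1 and 27.0 in KO2, and Igk, the kappa light chain locus, 119, 100.5 and 153 (named with its values known). Ighg3, a heavy chain of IgG, read 5.87, 2.70 and 5.72, and the surrogate light chain Igll1 3.55, 2.14 and 3.50. At these probe sets all 4 were lower in KO1 than in WT or KO2, and the median log2 difference of KO2 minus KO1 was 0.83. A dimmer Ighm probe set, 1425385_a_at, had the opposite order, at 0.759, 4.40 and 0.442. The other tested Ighm probe sets were all lowest in KO1, as was the second brightest, 1427329_a_at, at 10.5, 5.82 and 19.8. Those too dim to be tested were highest in KO1. Immunoglobulin genes share sequence, so which chain each probe set measured is uncertain.

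Of 20 further genes of the plasma cell program, 16 were tested and 0 were called in either direction. Their medians were 0.05 in KO1 and 0.38 in KO2, against -0.0026 and 0.22 over all genes. Txndc5, a disulfide isomerase, read 13.2 in WT against 21.4 and 20.1, the interleukin-6 receptor gene Il6ra 1.03 against 1.56 and 2.08, and Cd27 1.04 against 1.84 and 1.57. Zbtb20 read 3.46 against 2.67 and 3.02. Pou2af1, a B-lineage coactivator of immunoglobulin genes, and Xbp1, also active in secretory epithelial cells, were picked with their values known, as was Tnfrsf17. Pou2af1 read 8.14 against 3.997 and 13.4, the order of Igha and Jchain, and Xbp1 41.5 against 42.8 and 40.9. Tnfrsf17, the BCMA receptor of mature plasma cells, read 0.049, 0.069 and 0.246 and was too dim to be tested.

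General genes of endoplasmic reticulum folding and export, which secretory and absorptive epithelium share with plasma cells, had medians close to those of all genes. All 20 were tested, 0 were called in either direction, and their medians were 0.01 and 0.23. Canx, for the lectin chaperone calnexin, read 36.5 against 43.6 and 53.6, and Derl2, a relative of Derl3, 25.6 against 28.0 and 42.2. The disulfide isomerase Pdia4 read 23.0 against 13.7 and 20.2, and Hyou1, a chaperone of the same compartment, 55.0 against 58.8 and 68.9. KO2 was 2-fold or more above KO1 for 1 of the 20, against 3 of the 9 plasma cell and IgA genes and 6.55% of all tested genes. The difference between these lists was not tested.

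Signals that induce IgA or keep plasma cells alive gave 0 calls in 11 tested genes of 19 listed, with medians of -0.25 and 0.25. Nos2, whose nitric oxide promotes IgA switching, read 15.004 in WT against 8.82 and 9.31, and Cd40, the receptor for T cell help, 2.69 against 1.87 and 2.10. Tnfsf13b, the gene of BAFF, read 1.75 against 2.99 and 2.13, and Smad3, which carries TGF-beta signals, 4.52 against 7.68 and 5.42. Genes of gut homing gave 0 calls in 8 tested of 12, with medians of -0.63 and 0.26. The integrin Itga4 read 6.75 against 10.5 and 8.35, the chemokine Ccl25 74.3 against 82.5 and 109, and Ccr6, which brings B cells to the follicle dome, 5.44 against 3.01 and 5.02. The genes named here all had one sign in KO1 and KO2. In the first list 5 of the 11 tested genes were below WT in KO1 and above it in KO2. So were 5 of the 8 of the second, against 30.7% of all tested genes.

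Known regulators of Pigr and the traffic machinery of epithelial cells also gave 0 calls, in 16 tested of 19 and 12 tested of 13. The medians of the regulators were 0.12 and 0.30, with Relb, of the NF-kB family, at 7.92 against 10.8 and 12.3. Usf2, an E-box factor, read 2.23 against 2.96 and 4.47, Irf2 11.9 against 14.4 and 15.8, and the adaptor Myd88 6.79 against 4.004 and 4.69. The medians of the traffic genes were 0.03 and 0.34. Rab25, of apical recycling, read 12.9 against 17.8 and 20.7, and Stx3, an apical fusion protein, 22.5 against 33.7 and 32.5. Rab3b, which binds the receptor made from Pigr, read 1.12 against 0.583 and 0.335, and Rab11fip5 0.300 against 1.38 and 0.660.

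**Figure D4:**
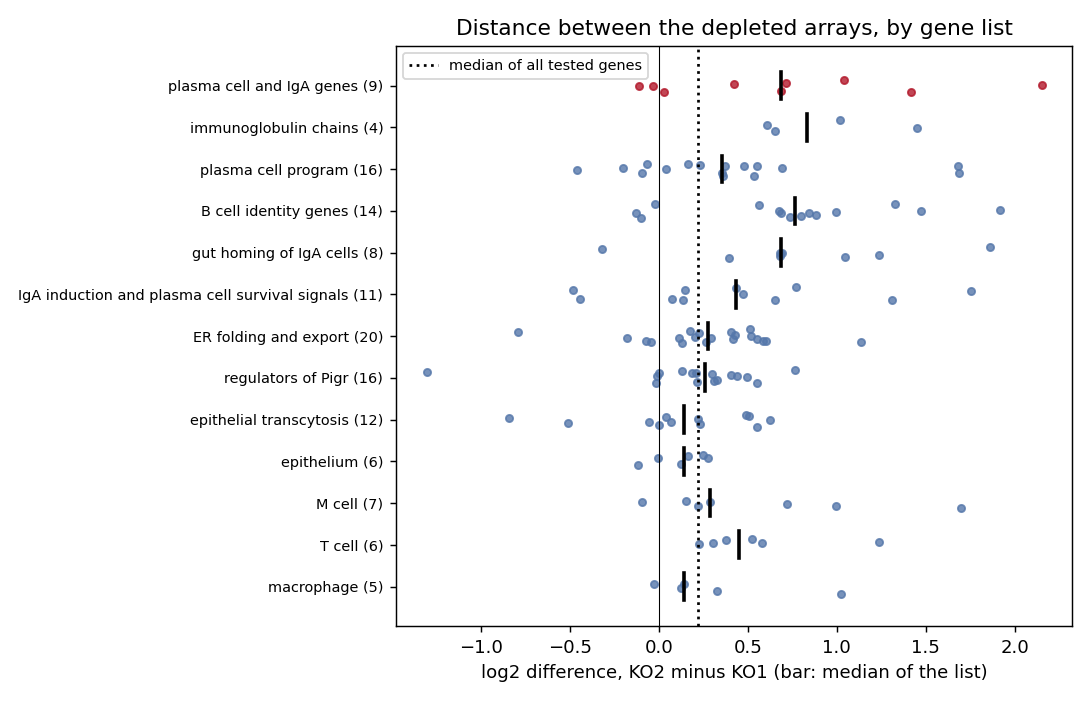
Log2 difference of KO2 minus KO1 for each tested gene, from the values as deposited, by list with the number tested in brackets, with a bar at each list's median and a dotted line at the median of all tested genes, 0.22. The medians of the plasma cell and IgA genes, 0.69, the immunoglobulin chains, 0.83, and the B cell identity genes, 0.77, lie to the right. So do those of gut homing, 0.69, T cell, 0.45, IgA induction and survival, 0.43, and the plasma cell program, 0.36. M cell genes, 0.29, endoplasmic reticulum genes, 0.28, and Pigr regulators, 0.26, lie just right of the line. The epithelial, macrophage and transcytosis genes, each at 0.14, lie to its left.

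Of 16 B cell identity genes 14 were tested and 0 called. Against 66.9% of all tested genes, 11 of the 14 were higher in KO2 than in KO1, with a median of 0.77. Their summed intensity was 95.1 in WT, 63.4 in KO1 and 126 in KO2, and 56.1, 29.6 and 58.2 without Spib, which M cells also express. Of the 14 genes, 6 were below WT in KO1 and above it in KO2, 5 were below in both and 3 above in both. The shares of all tested genes were 30.7%, 19.5% and 39.0%. Within the list Ms4a1, the gene of CD20, read 11.1 against 4.12 and 6.73, Cd22 4.11 against 1.64 and 2.53, and Cr2 2.01 against 1.04 and 0.949, which are among those 5. Bach2, a repressor of plasma cell differentiation, read 1.66 against 2.27 and 4.28. The 6 tested T cell genes summed to 14.8, 11.9 and 19.99, the 5 macrophage genes to 66.7, 66.0 and 84.3 (9.83, 10.3 and 14.3 without Lyz2), and the 6 epithelial genes to 474, 532 and 584. Their median log2 differences of KO2 minus KO1 were 0.45, 0.14 and 0.14, against 0.22 over all genes. Of 5 stromal genes 2 were tested, Pdpn, at 0.517, 0.997 and 1.29, and Col1a1, at 0.928, 0.627 and 1.16. The others were too dim to be tested, with Col1a2 at 0.039, 0.675 and 0.831, Col3a1 at 0.089, 0.098 and 0.749, and Dcn at 0.091, 0.101 and 0.367. RNA quality was read from control probe sets as the ratio of the 3' to the 5' end of a transcript. For Gapdh it was 1.83 in WT, 2.28 in KO1 and 1.54 in KO2, and for Actb 1.11, 1.15 and 1.02. The part of these other cells and of RNA quality in the distance between KO1 and KO2 was not tested.

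The genes nearest to Jchain in their pair of log2 differences, among 11310 tested genes with a common symbol, were Birc5, Sema5a and Ighm, and 11 genes lay within a distance of 0.1. Birc5, a gene of dividing cells, read 7.34 in WT, 5.395 in KO1 and 15.1 in KO2. Sema5a, a semaphorin, read 8.38, 6.34 and 16.7. Nearest to Pigr were Ifi27l2b, Nmur1 and Treml4, among 275 genes within the same distance. Ifi27l2b read 58.3, 64.2 and 62.5, while Nmur1 and Treml4 were dim, at 0.697 to 0.799 and 0.745 to 0.853. Likeness here is over 2 differences from 3 arrays, which many genes share.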

How the data were processed

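RNA of follicle-associated epithelium was measured on 3 arrays. The deposited values are linear intensities computed by the authors using MAS5, according to the submitters' processing notes, and each array's median is exactly 1. Scanner files, detection calls and a genome build were not used here. Arrays have no depth, and their number limits the precision. Probe sets were named through GEO's platform annotation: of 45101 probe sets, 34945 had 1 symbol, 932 several and 9160 were not listed. A gene was represented by its probe set with the highest mean. Genes with a mean of at least 0.598, the 40th percentile, were tested as log2(value + 0.248), the pseudocount being the 25th percentile of all values. All 9 genes and 16 of their 18 probe sets passed.

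KO1 and KO2 were compared with WT by limma 3.58.1 under R 4.3.3 (lmFit, eBayes, intensity trend), with Benjamini-Hochberg adjustment over all 11885 genes and calls at an adjusted p under 0.05. KO1 and KO2 give 1 residual degree of freedom, to which eBayes added 600 prior degrees of freedom. The script was tested on simulated data. The genes and lists were chosen with earlier results of these data known. Besides the 9 genes, those named are up to 4 per list whose KO1 and KO2 differences had one sign, ranked by the smaller of them, the 3 nearest to Jchain and to Pigr, and checks. Outside this rule Igk, Pou2af1, Xbp1 and Tnfrsf17 were picked with their values known, and all 5 stromal genes are given. Spib and Lyz2 are named where sums leave them out. Alternatives changed the pseudocount, filter, scaling, probe set rule, variance model and arrays. Promoter sequences are RefSeq's (GRCm38.p6), and those of Mzb1 and Igha were neither shown nor searched.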

Additional observations from a re-analysis of the deposited data

How the results depend on the processing

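No gene of the 9 was called by limma, or had an unadjusted p under 0.05, under any of the 10 alternatives with a test, and all adjusted p-values there were above 0.99. A changed filter or variance model, or a test of each probe set by itself, leaves a gene's log2 difference as it was. Many of the 88 log2 differences of the 9 genes under these alternatives could therefore not turn. Of the 88, 85 kept their direction. The other 3 were Pigr, at -0.12 with quantile normalization and -0.00046 when scaled to named genes averaging 5 or more, and Igha, at -0.014 with quantile normalization. The count of all genes called, 10, was 1 unfiltered, 6 when filtered at the 60th percentile, 4 with quantile normalization, 4 with one 75th percentile for the arrays, 5 scaled to named genes averaging 5 or more, and 21 with every probe set tested by itself. The count of genes that differed from WT by 2-fold or more in KO1 and KO2 alike, 158, was 38 with a pseudocount of 1, 7 with a pseudocount of 5, 286 unfiltered, 66 when filtered at the 60th percentile, 81 when the probe sets of a gene were averaged and 323 over probe sets. A larger pseudocount makes every log2 difference smaller, so fewer genes can reach 2-fold, and fewer or more genes enter with another filter or unit. The cause of the other moves was not tested. Leaving out KO1 or KO2 leaves no residual degree of freedom and so no test: the median log2 difference of the 9 genes, 0.29 with both, was -0.07 without KO2 and 0.70 without KO1. The 2-fold count then needs a difference in 1 depleted array only, so it cannot be set beside 158. It was 763 without KO2 and 618 without KO1. No paired analysis was possible because the labels number only KO1 and KO2.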
